A study of Caenorhabditis elegans with 2 samples.

Results

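The nuclear genes of oxidative phosphorylation were examined for binding of the transcription factor UNC-3. They were taken as all protein-coding nuclear genes of Ensembl release 115 (WBcel235) whose symbols begin with atp, nuo, cox or ucr followed by a number. The rule gave 31 genes out of 19973 nuclear protein-coding genes: 6 of complex I, 5 of complex III, 15 of complex IV (7 subunits and 8 assembly factors by their names) and 5 of complex V. The rule that selects the genes uses their symbols and no signal value. It and the gene groups set beside these genes were chosen with earlier results of these data known.

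The assay was ChIP-seq, in which DNA that precipitates with a protein is sequenced, on the nematode Caenorhabditis elegans. There was 1 group with 2 biological replicates: hermaphrodites of strain OP578, genotype unc-119(tm4063) III; wgIs578, taken as late embryos 4 h after egg bleaching. The integrated transgene wgIs578 adds a UNC-3 protein tagged at its C terminus with GFP and FLAG, and sonicated chromatin was precipitated with an antibody against GFP. Whole organisms were used, so a peak cannot be assigned to a cell type, and no second strain or condition was compared.

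Oxidative phosphorylation passes electrons from NADH and succinate along complexes I to IV of the inner mitochondrial membrane to oxygen, and complex V, the ATP synthase, uses the resulting proton gradient to make ATP. Most subunits, and all of the assembly factors studied here, are encoded in the nucleus, while a few core subunits are encoded by mitochondrial DNA. In C. elegans these genes are broadly expressed, and loss of function of several of them, among them cox-5B (also called cco-1), nuo-2, atp-3 and nuo-6, is known to lengthen lifespan. UNC-3 belongs to the COE proteins (Collier, Olf, EBF) and is a terminal selector of cholinergic motor neurons. COE proteins bind the palindrome TCCCNNGGGA.

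The bases around the summits of 6 of the 14 genes with pooled signals of 49.9 or more are printed to show the letters that the motif counts given further on refer to. They were chosen in part because 5 of them hold a GC-rich or GA-rich hexamer, so their number says nothing of how common these are. At the strongest pooled summits the GC-rich hexamer was in 5 of the 24 genes with a pooled peak, against 7.72% of all genes with one, and the GA-rich hexamer in 2 of 24, against 17.7%. Each stretch is read 5′ to 3′ on the strand of the gene from the RefSeq WBcel235 genome, which is the ce11 build, and spans up to 100 bases on either side of the summit. It was shortened where an annotated untranslated region of a neighbouring gene began. Capitals mark the GC-rich hexamer GGGCGG on either strand in ucr-2.1, atp-2 and nuo-5. In cox-5A and ucr-2.2 they mark the GA-rich hexamer GAGAGA on either strand. The cox-6B stretch, chrIII:2785949-2786127 on the plus strand, holds neither hexamer. The cox-5A stretch is chrIII:12905117-12905317, the ucr-2.1 stretch chrX:12018044-12018229, the ucr-2.2 stretch chrX:15173637-15173825, the atp-2 stretch chrIII:5228099-5228299 and the nuo-5 stretch chrV:2697808-2698008, all on the plus strand.
cox-6B: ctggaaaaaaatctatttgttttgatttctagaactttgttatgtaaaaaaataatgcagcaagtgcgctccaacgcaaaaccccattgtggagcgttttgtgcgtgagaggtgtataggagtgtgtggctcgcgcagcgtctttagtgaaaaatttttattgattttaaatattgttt
cox-5A: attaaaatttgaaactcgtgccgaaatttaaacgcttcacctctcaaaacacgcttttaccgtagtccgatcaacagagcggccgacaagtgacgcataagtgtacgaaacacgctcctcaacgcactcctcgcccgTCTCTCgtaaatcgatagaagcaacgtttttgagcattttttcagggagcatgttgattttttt
ucr-2.1: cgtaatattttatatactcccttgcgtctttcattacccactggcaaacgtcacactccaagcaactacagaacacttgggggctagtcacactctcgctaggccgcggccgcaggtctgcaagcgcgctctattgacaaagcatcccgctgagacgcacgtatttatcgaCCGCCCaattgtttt
ucr-2.2: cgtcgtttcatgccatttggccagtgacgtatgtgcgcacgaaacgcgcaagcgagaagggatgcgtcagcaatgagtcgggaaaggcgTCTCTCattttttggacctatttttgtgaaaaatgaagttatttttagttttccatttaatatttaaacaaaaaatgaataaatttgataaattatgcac
atp-2: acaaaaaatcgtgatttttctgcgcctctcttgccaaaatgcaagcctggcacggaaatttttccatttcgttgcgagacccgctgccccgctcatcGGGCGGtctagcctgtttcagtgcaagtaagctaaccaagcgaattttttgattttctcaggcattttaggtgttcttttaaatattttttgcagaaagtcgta
nuo-5: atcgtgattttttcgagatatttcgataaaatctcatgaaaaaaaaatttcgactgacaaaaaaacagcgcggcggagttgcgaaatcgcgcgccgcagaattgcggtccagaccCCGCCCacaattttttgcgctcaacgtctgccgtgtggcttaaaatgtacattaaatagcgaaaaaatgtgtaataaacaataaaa

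Each gene was scored by the summits of the deposited ce11 peak lists that fell in a window reaching 2000 bp before and 500 bp past any annotated transcription start site (TSS) of that gene. The signal of a peak is the strength given by the authors' peak caller, whose scale is not known here, and rank 1 is the strongest peak of a list. There were 20517 entries for replicate 1 and 21474 for replicate 2, peaks and background together. A list called on both replicates pooled held 15515, also peaks and background together. Its entries are called pooled peaks here, so a weak one can be a background entry. The optimal list after the irreproducible discovery rate (IDR) step, which sets a cut on a peak list from the agreement of peak ranks between replicates, held 754 peaks with signals of 60.2 or more, and these were the 754 strongest pooled peaks. A peak in it need not rank alike in both replicates. Signals were set on each list separately, so values of different lists are given side by side and not tested against each other.

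Of the 31 genes, 9 had an IDR summit in the window (29.0%), against 3.66% of all nuclear protein-coding genes. They were ucr-11, cox-5B, cox-6B, atp-1, cox-6A, cox-5A, ucr-2.1, cox-10 and nuo-2, with 11 distinct IDR peaks between them. A pooled summit was present at 24 of the 31 (77.4%), against 37.8% of all genes. In the replicate lists the count was 23 of 31 in replicate 1 (74.2%), against 45.8% of all genes, and 25 of 31 in replicate 2 (80.6%), against 46.0% of all genes. Taking only the 754 strongest peaks of each replicate, 6 genes had one in replicate 1 (19.4%), against 3.57% of all genes. In replicate 2 there were 8 (25.8%), against 3.63%, and 5 genes had one in both (16.1%), against 2.53%. The 9 genes fell in all complexes measured here: 1 of 6 genes of complex I, 2 of 5 of complex III, 5 of 15 of complex IV and 1 of 5 of complex V.

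**Figure D1:**
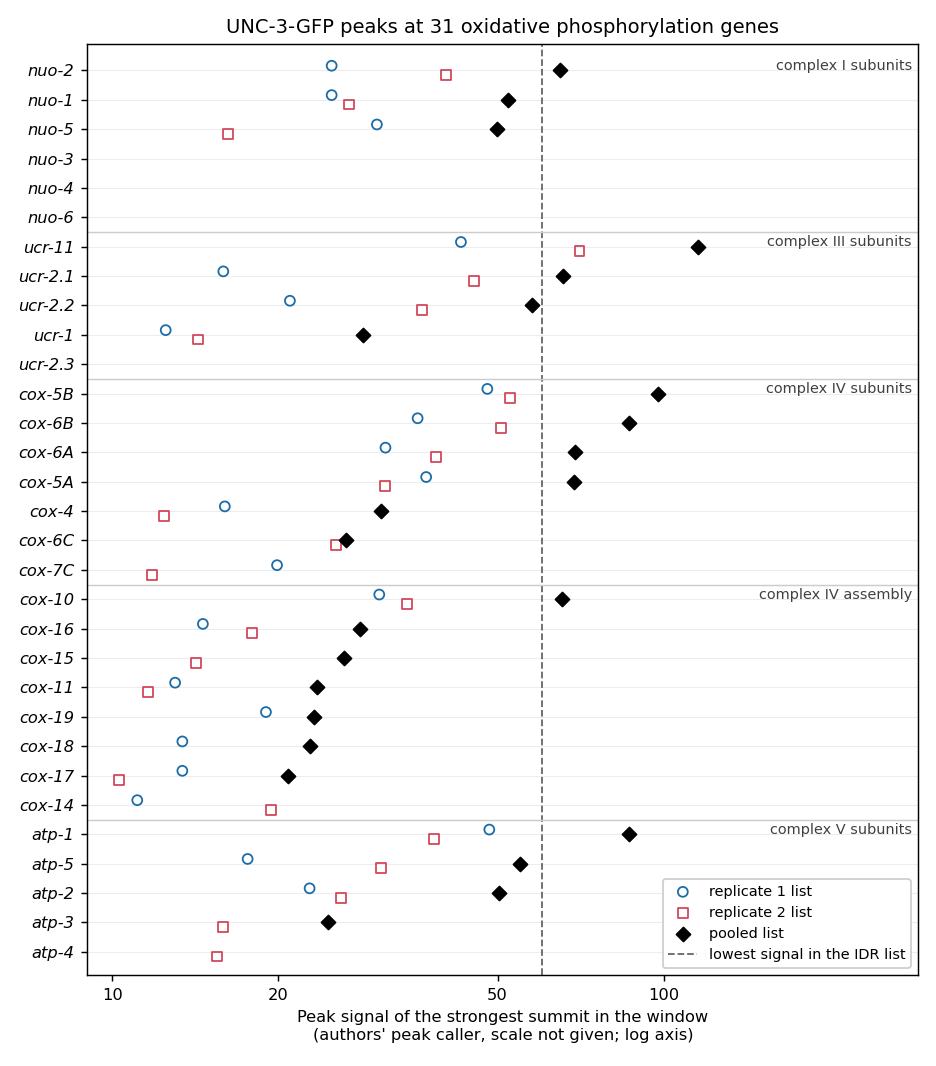
Signal of the strongest summit in the window of each of the 31 genes (rows, grouped by complex) in the replicate 1, replicate 2 and pooled lists, on a log axis. Of the 24 genes with a pooled peak, 9 lie right of the dashed line at 60.2, the lowest signal in the IDR list, and nuo-3, nuo-4, nuo-6 and ucr-2.3 have no symbol because no list held a summit there.

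Among the 6 nuo genes of complex I, only nuo-2 had an IDR peak. Its human homolog NDUFS3 is a core subunit of the arm that takes electrons from NADH. The nuo-2 signal was 25 in replicate 1 (rank 1276) and 40.3 in replicate 2 (rank 520), and 65.0 in the pooled list (rank 631). The summit lay 147 bp upstream of the nuo-2 start, on chromosome I at 6532110, in an annotated untranslated region of T10E9.14, a gene that ends close upstream on the same strand. For nuo-1, the flavoprotein subunit that accepts electrons from NADH, the signal was 25 in replicate 1, 26.9 in replicate 2 and 52.3 in the pooled list (rank 1038). That summit lay 507 bp from the nuo-1 start and 126 bp from the start of rpl-36.A, which encodes a ribosomal protein. For nuo-5, homologous to the large iron-sulfur subunit NDUFS1 of human cells, the signal was 30.2 in replicate 1, 16.2 in replicate 2 and 49.9 in the pooled list (rank 1135). This is the member that leaned most towards replicate 1, and its summit lay 1064 bp upstream of nuo-5 in an intron of Y45G12B.2. The supernumerary subunit genes nuo-3, nuo-4 and nuo-6 had no summit in any list. Of the 6 nuo genes, 1 thus had an IDR peak and 3 a pooled peak. Complex I genes with other names are given further on.

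In complex III, ucr-11 held the strongest peak of all 31 genes. Its signal was 42.9 in replicate 1 (rank 341), 70.4 in replicate 2 (rank 132) and 115.7 in the pooled list (rank 183). The summit, on chromosome I at 6554679, lay 1300 bp upstream of ucr-11 and 50 bp from the start of tre-1, a trehalase gene, and the peak was also in the window of dad-1. The core proteins are encoded by ucr-1 and the 3 ucr-2 genes. For ucr-2.1 the signal was 15.9 in replicate 1 (rank 6545), 45.3 in replicate 2 (rank 389) and 65.7 in the pooled list (rank 620). Replicate 2 was thus 2.85 times replicate 1 at this gene, the widest ratio among the 19 genes compared in this way, and the replicate 1 rank was far outside the 754 strongest. The ucr-2.1 summit, on chromosome X at 12018129, was 300 bp upstream of its own start and 86 bp from that of nmat-1, a gene for an NAD-synthesis enzyme. Its paralog ucr-2.2 had 21.0 in replicate 1, 36.5 in replicate 2 and 57.8 in the pooled list (rank 821), 179 bp upstream of its own start and just below the IDR list. For ucr-1 the values were 12.5, 14.3 and 28.5 in replicate 1, replicate 2 and the pooled list, and ucr-2.3 had no summit in any list. The 3 ucr-2 paralogs therefore covered the whole span from an IDR peak to no peak.

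The 7 complex IV subunit genes had the highest IDR share of the classes: 4 had an IDR peak (57.1%) and 6 a pooled peak, with a median pooled signal of 68.9. Subunit 5B, encoded by cox-5B, had the strongest of these. The cox-5B signal was 47.9 in replicate 1 (rank 259), 52.6 in replicate 2 (rank 287, at a peak 922 bp upstream) and 97.8 in the pooled list (rank 264). Its window held 3 IDR peaks, with pooled signals of 97.8 at 23 bp upstream of the start (chromosome I at 9788702), 83.3 at 922 bp and 60.3 at 723 bp, and the 2 farther ones were nearest to the start of tba-1, which encodes an alpha-tubulin. At the peak beside the start itself the replicates gave 47.9 and 48.5, so this was the member on which they lay closest. For cox-6B the signal was 35.8 in replicate 1, 50.7 in replicate 2 and 86.6 in the pooled list (rank 355). The annotation gives cox-6B 2 TSSs; the summit, on chromosome III at 2786027, was 175 bp upstream of one of them, inside an intron of the longer form and 79 bp from the start of Y71H2AM.20. The same peak was in the window of nduc-2, a complex I gene. At the gene for subunit 6A, cox-6A, the signal was 31.3 in replicate 1, 38.6 in replicate 2 and 69.2 in the pooled list (rank 569), at 798 bp upstream (chromosome III at 5080926). The small nuclear RNA gene F54D8.7 lay within 200 bp of that summit. The cox-5A signal was 37.1 in replicate 1, 31.2 in replicate 2 and 68.7 in the pooled list (rank 574). The cox-5A summit, on chromosome III at 12905217, lay 274 bp upstream of the gene between annotated genes, it was nearest to cox-5A itself, and it was in no other gene's window.

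The other complex IV subunit genes were lower by a wide step. For cox-4 the signal was 16 in replicate 1, 12.4 in replicate 2 and 30.7 in the pooled list (rank 4260). For cox-6C it was 25.5 in replicate 2 and 26.5 in the pooled list, with no replicate 1 summit in the window. The cox-7C window held a summit of 19.9 in replicate 1 and of 11.8 in replicate 2 at separate places and none in the pooled list.

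The genes for complex IV assembly factors, which are not part of the finished enzyme, had 1 IDR peak among 8 (12.5%) although 7 had a pooled peak, and their median pooled signal was 23.5. The exception was cox-10, whose yeast and human homologs make the first intermediate of heme A. The cox-10 signal was 30.5 in replicate 1, 34.2 in replicate 2 and 65.5 in the pooled list (rank 623). This summit, on chromosome II at 12678159, lay 1795 bp upstream of cox-10, 349 bp from the start of Y38E10A.22 and within 200 bp of a tRNA gene, so it was the farthest of the 9 from the gene it was scored for. The heme A synthase gene cox-15 had 26.3 in the pooled list and 14.2 in replicate 2, with its pooled summit 1873 bp upstream in the coding sequence of fndc-1. Among the genes whose yeast homologs deliver copper to the enzyme, cox-17 had 13.4, 10.3 and 20.8 in replicate 1, replicate 2 and the pooled list, and cox-11 had 13.0, 11.6 and 23.5. For cox-19 the values were 19 in replicate 1 and 23.2 in the pooled list. The pooled signal was 28.2 at cox-16, with 14.6 in replicate 1 and 17.9 in replicate 2, and 22.8 at cox-18, a homolog of a membrane insertion factor of yeast, whose pooled peak overlapped no peak of either replicate. At cox-14 only the replicate lists held summits, of 11.1 and 19.4 in replicates 1 and 2. The difference between subunits and assembly factors rests on 7 and 8 genes of 1 group of embryos and was not tested. The classes also differed in gene spacing. A same-strand gene ended within 500 bp upstream at 0 of the 7 subunit genes and at 5 of the 8 assembly factor genes (62.5%). Whether this spacing bears on the difference was not tested.

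**Figure D2:**
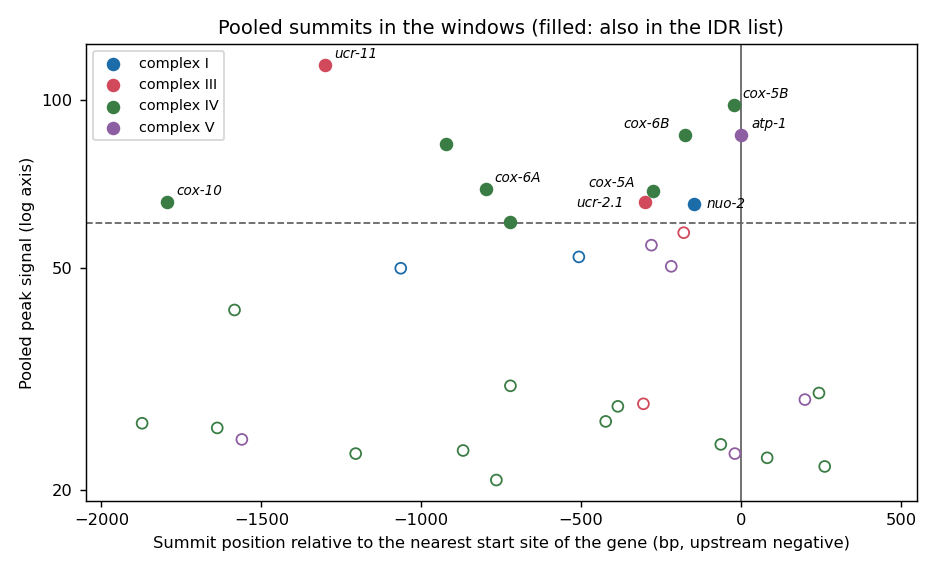
Position of each of the 33 distinct pooled peaks in the windows (horizontal axis, bp from the nearest start of the gene, upstream negative) against its pooled signal (log axis), coloured by complex. The 11 filled points are IDR peaks above the dashed line at 60.2, and all of them lie upstream of the start or, for atp-1, 1 bp before it.

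Among the 5 atp genes of complex V, atp-1, which encodes the alpha subunit of the ATP synthase head, was the only one with an IDR peak. The atp-1 signal was 48.3 in replicate 1 (rank 254), 38.3 in replicate 2 (rank 574) and 86.5 in the pooled list (rank 357). Its summit lay 1 bp upstream of the annotated start, on chromosome I at 12652276, and the peak was shared with the window of mcrs-1. For atp-2, the catalytic beta subunit, the signal was 22.8 in replicate 1, 26.0 in replicate 2 and 50.3 in the pooled list (rank 1117), at 218 bp upstream. For atp-5, a stalk subunit gene, it was 17.6, 30.7 and 54.9 in replicate 1, replicate 2 and the pooled list (rank 929), 280 bp from atp-5 but 39 bp from the start of lmtr-3. The alpha and beta subunits, which form the head in equal numbers, thus lay on either side of the IDR limit. The remaining stalk genes among these were weak. The atp-3 pooled summit, 1561 bp upstream, had a signal of 24.6, and the replicate 2 peak that overlaps it had 10.9. A separate replicate 2 summit of 15.9 lay at an atp-3 start, and replicate 1 had none in the window. For atp-4 there was a summit of 15.5 in replicate 2 only. Of the 5 atp genes, 1 had an IDR peak and 4 a pooled peak. Complex V genes with other names are counted further on among the further respiratory genes, and none of those listed there had an IDR peak.

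The replicates ordered the genes alike in broad terms. Over the 21 genes with a summit in both replicate lists, the strongest signals in the window had a Spearman rho of 0.70. The signals paired for a gene need not belong to the same peak, as at cox-5B, cox-7C and cox-14. The 21 genes share the same embryos' strain, antibody and peak caller, and the rho is given as a description. At 19 genes the strongest pooled peak overlapped a peak in both replicates, and replicate 2 over replicate 1 ranged from 0.536 at nuo-5 to 2.85 at ucr-2.1, with a median of 1.14. Replicate 2 was higher at 13 of these and replicate 1 at 6. No such values over all genes are given here. A trait of these genes therefore cannot be told from a difference in scale between the lists. With 2 replicates and no read depths, no error can be attached to a single gene beyond this pair of values.

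**Figure D3:**
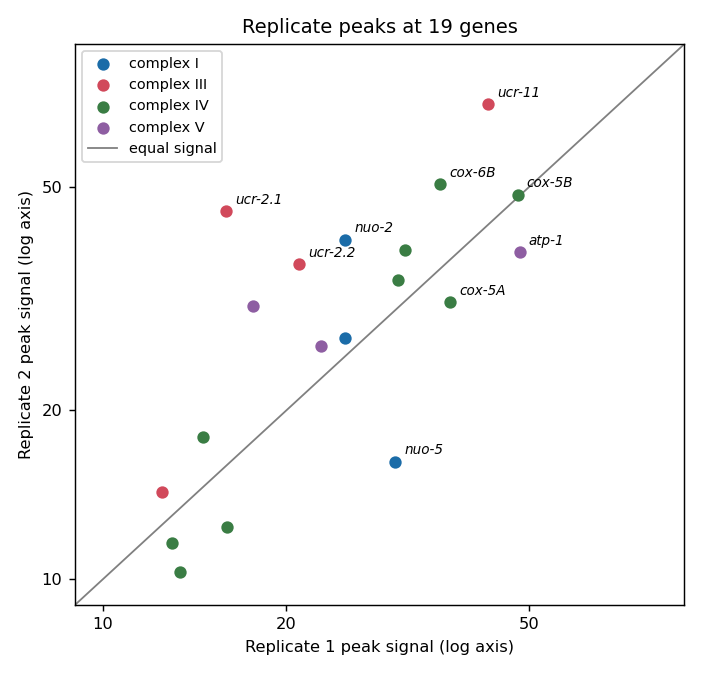
Replicate 2 against replicate 1 signal (both log axes) of the peaks that overlap the strongest pooled peak, for the 19 genes that have both, coloured by complex. The cox-5B point lies on the line of equal signal, ucr-2.1 lies farthest above it at a ratio of 2.85 and nuo-5 farthest below it at 0.536.

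The strongest pooled peaks of the genes spread over a wide range of ranks. The 24 strongest pooled peaks ranged from 20.8 at cox-17 to 115.7 at ucr-11, with a median of 51.3 (median rank 1077.5), against a median of 27.9 (rank 5750) over all genes with a pooled peak. Besides the 9 genes within the IDR list, 5 genes (ucr-2.2, atp-5, nuo-1, atp-2 and nuo-5) had their strongest peak between ranks 755 and 1508 (16.1%), against 3.23% of all genes. None lay between ranks 1509 and 3016, where 4.84% of all genes did, and 10 lay beyond (32.3%), against 26.0% of all genes. With so few genes, the absence from the middle ranks cannot be told from the share of all genes. The IDR limit passed between nuo-2 at 65.0 and ucr-2.2 at 57.8. Thus 14 genes had signals of 49.9 or more and the next, cox-4, had 30.7.

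**Figure D4:**
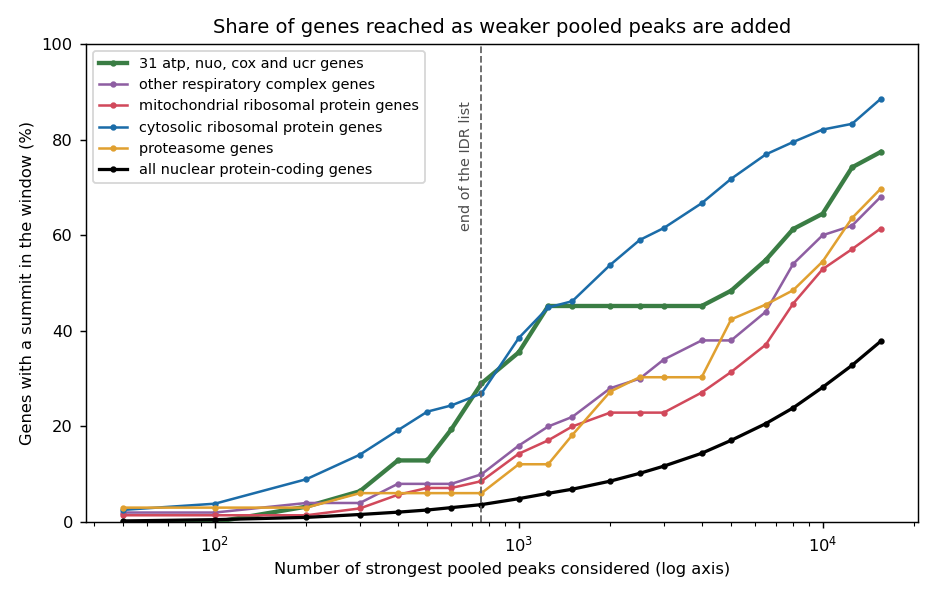
Percentage of genes (vertical axis) with a summit in the window when only the strongest pooled peaks up to a given number are considered (horizontal axis, log scale). The line of the 31 genes is at 29.0% where the IDR list ends, is level through the middle ranks and ends at 77.4%, while all nuclear protein-coding genes end at 37.8%.

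Other gene groups with broad expression gave a scale for these shares. A further 50 respiratory genes were counted, of complexes I, II, III and V and of cytochrome c. Those of complex I were mainly of the nduf, ndua, ndub, nduc, ndus, nduv and nuaf series. Of the 50 genes, 34 had a pooled peak (68.0%) and 5 an IDR peak (10%). These were ndua-2, a complex I subunit gene, at 188.5, cyc-2.1 (cytochrome c) at 136.0, nduc-2 at 86.6 through the peak it shares with cox-6B, nduf-11 at 81.4 and cyc-1 (cytochrome c1 of complex III) at 64.7. Cytosolic ribosomal protein genes had an IDR peak at 21 of 78 (26.9%), close to the 31 genes, and a pooled peak at 69 (88.5%). Mitochondrial ribosomal protein genes had 6 of 70 (8.57%) and proteasome genes 2 of 33 (6.06%). A share near 29.0% was therefore not found in these genes alone, and among the wider respiratory set it was lower.

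**Figure D5:**
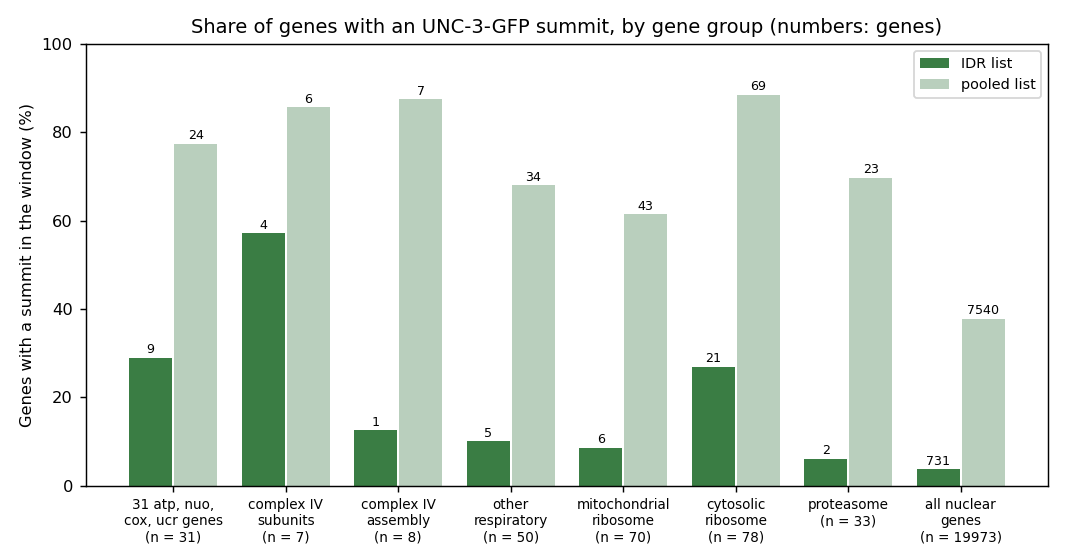
Percentage of genes with an IDR summit (dark bars) and with a pooled summit (light bars) in the window, for the 31 genes, the complex IV classes within them, 4 other gene groups and all nuclear protein-coding genes; numbers above bars count genes. The 31 genes reach 29.0% for IDR peaks, cytosolic ribosomal protein genes 26.9%, complex IV subunits 57.1% and all nuclear genes 3.66%.

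Many of the peaks were also close to another gene. Another protein-coding gene started inside the window of 23 of the 31 genes (74.2%), against 42.5% of all genes, although the median window was 2501 bp in both. Among genes with such a neighbouring start the IDR share was 7 of 23 for the 31 genes and 5.76% for all genes, and among those without it 2 of 8 and 2.11%. The IDR peak was in another gene's window as well at 7 of the 9 genes, cox-5A and cox-6A being the others. The closest start belonged to the gene itself at 5 of the 9 (atp-1, cox-5A, cox-5B, cox-6A and nuo-2; 55.6%), against 61.8% of the 731 genes with an IDR peak. For the strongest pooled peak it was the gene's own at 10 genes and another gene's at 14. Over all genes with a pooled peak it was the gene's own at 71.5%. When every peak was given to its nearest TSS alone, 5 of the 31 genes had an IDR peak (16.1%), against 3.41% of all genes, but the pooled count was 14 (45.2%), against 41.8% of all genes. The pooled share was thus near the background under that assignment. Which of 2 neighbouring genes a peak acts on was not measured.

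The strongest IDR summit of each of the 9 genes lay upstream of the start, as at 93.7% of all genes with an IDR peak, and 6 of the 9 lay within 500 bp (66.7%, against 59.8%). Their median distance was 274 bp, against 375 bp over all genes with an IDR peak. Genes with a same-strand neighbour ending within 500 bp upstream, the spacing of C. elegans operons in which several genes share 1 promoter, made up 11 of the 31 (35.5%), against 18.1% of all genes. An IDR peak was found at 2 of these 11, nuo-2 and ucr-11, against 3.23% of all genes with that spacing, and at 7 of the other 20, against 3.75% of all genes without it. The shares of all genes were thus close with and without that spacing, and the difference among the 31 genes was not tested. Small RNA genes lay within 200 bp of the summit at 2 of the 9 genes, cox-6A and cox-10, against 15% of all genes with an IDR peak, and without such peaks 7 genes (22.6%) had one, against 3.11% of all genes.

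No COE palindrome was found within 100 bp of the strongest pooled summit at any of the 24 genes, against 0.782% of all genes with a pooled peak. A rough limit of 3 counts in 24 genes, taken as if they were independent draws, allows a share of up to 12.5%. The motif is so rare over all genes that its absence at 24 genes could not be told from the background. With 1 mismatch allowed, atp-5 alone had it (4.17%, against 4.3%). In the promoters, from 250 bp before to 50 bp after the start, it was in none of 31, against 0.13% of all genes. The GC-rich hexamer GGGCGG, searched on both strands, was at 5 of the 24 summits (atp-1, atp-2, nuo-5, ucr-11 and ucr-2.1; 20.8%), against 7.72%, and in 6 of the 31 promoters (19.4%), against 7.83%. At the strongest IDR summits it was at 3 of 9 (33.3%), against 19% of all genes with an IDR peak. The hexamer GAGAGA was at 2 of the 24 (cox-5A and ucr-2.2; 8.33%), against 17.7%, and CTGCGTCT was at none, against 4.59%. The GC content of the summit windows had a median of 36.8% at the 24 genes and over all genes with a pooled peak. These matches describe the letters under the peaks and were not tested.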

How the data were processed

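Per the accompanying notes deposited with the lists, the authors called each replicate list on its own alignment against a control, a pooled list on both, and the optimal IDR list was derived from these. The deposited signal value (column 7 of each list) is the authors' own measure of peak strength and was used only to describe and rank peaks within a list. The aligner, peak caller, IDR threshold and signal scale were not given in the sources used here. Depth is unknown, so no interval that needs it is given. The ce10 lists and the control were not used here. Summits in ce11 were assigned to Ensembl release 115 genes of WBcel235, whose coordinates are those of ce11. There was 1 group, so no test between conditions was possible, and no p-value is given. The members and gene lists were chosen with earlier results of these data known. The genes named were to be those with an IDR peak, then others by pooled signal up to 25; all 31 are described, the others to account for every member. Replicates are biological per the labels. Operon spacing, small RNA genes and motifs were read from the annotation and the RefSeq genome. Assignment and motif search were tested on simulated data. Python 3.11.15, numpy 2.4.6, pandas 2.3.3, scipy 1.17.1 and matplotlib 3.10.9 were used. Alternatives covered the window, TSS choice, overlap rule, nearest-TSS assignment, stronger peaks, small RNA genes, operon spacing, single replicates and motif settings.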

Additional observations from a re-analysis of the deposited data

How the results depend on the processing

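Of 38 alternative values for the 4 main counts, 27 stayed within 1.5 times the reported count. The 27 include palindrome counts that stayed at 0, and the one within 50 bp could not have risen. With a single replicate the IDR and both-replicate counts are the same number, so these alternatives are not all independent. Over all 31 genes the share with an IDR peak ranged from 12.9% to 29.0%, with no alternative above the reported share, and that of all genes from 1.96% to 3.97%. Among the 20 genes without operon-like spacing it was 35.0%, against 3.75%. In a window of 500 bp upstream to 100 bp downstream, 13 genes had a pooled peak (41.9%, against 17.9%) and 3 a strong peak in both replicates (9.68%, against 1.36%). With each peak given to its nearest TSS, the IDR, pooled and both-replicate counts were 5, 14 and 3. These were 16.1%, 45.2% and 9.68%, against 3.41%, 41.8% and 2.2% of all genes. With peaks above the median of each list, 4 genes had an IDR peak (12.9%, against 1.96%) and 2 a strong peak in both replicates (6.45%, against 1.4%). A replicate used alone gave 6 genes (without replicate 2) and 8 genes (without replicate 1) among its 754 strongest peaks, against 5 in both. The single-replicate shares were 19.4%, against 3.57% of all genes, and 25.8%, against 3.63%. Allowing 1 mismatch found the palindrome at 1 gene. A further alternative, chosen after seeing the data, kept peaks that were in the window and nearest to the gene: 5 genes had an IDR peak (16.1%, against 2.3%) and 11 a pooled peak (35.5%, against 28.7%). Narrower windows and stricter lists admit fewer peaks; for the other changes the cause was not tested. No paired analysis was possible because there was 1 group. Unknown depth limits what the absence of a peak shows.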

Other observations

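The subunits of these complexes that mitochondrial DNA encodes lay outside the nuclear genes described above, and peaks were called there as well. The mitochondrial genome, of 13794 bp with 12 protein-coding genes, held 13 summits of the IDR list, with signals from 74.7 to 996.8 and a median of 265.3. Of these, 10 lay inside protein-coding genes, and 6 of the 12 genes held at least 1. The share of nuclear genes with a summit inside the gene was not computed, so this count has no background beside it. The summit of 340.4 was in ND1, a complex I subunit gene, and that of 277.0 in COX3, a complex IV subunit gene. In COX3 replicate 2 had a summit of 213.5 and replicate 1 had none. The strongest summit of the whole IDR list, at 996.8, was in mitochondrial DNA, against 115.7 for the strongest at the 31 nuclear genes. Mitochondrial DNA is present in many copies per cell, and how the control alignment treated it was not analysed here.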
